A study of Mus musculus with 12 samples.

Results

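From the 54658 genes in the count tables of 12 mouse RNA-seq libraries, 10 genes of the DNA methylation and Polycomb machinery were followed by name: Dnmt1, Uhrf1, Hells, Dnmt3a, Dnmt3b, Tet1, Tet2, Tet3, Ezh1 and Ezh2. They form a functional group, and all 10 passed the filter on low counts. The libraries came from 9 mammary tumours and from 3 preparations of mammary gland tissue enriched for epithelium. Tumours carried the genotype Trp53R245W/+, a missense allele of the tumour suppressor p53 that the series describes as somatic, and the epithelium was wild-type (WT). Every animal was a female F1 hybrid of C57BL/6J and BALB/cJ, and the labels give no age. The promoter or Cre that activated the allele, the number of mice behind the 9 tumours and any pooling of glands are not given in the labels. Genotype, tissue and the prefix of the library titles therefore changed together between the groups and cannot be told apart. Nothing in the labels says that libraries of a group came from separate animals, so p-values measure the spread between these libraries only.

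In mammals, DNA methylation is a methyl group on the cytosine of CpG pairs. DNMT3A and DNMT3B set it on unmarked DNA, and DNMT1 copies it onto the new strand after replication, guided by UHRF1, which recognises CpG methylated on the old strand only and marks histone H3 for DNMT1, and helped by the chromatin remodeller HELLS (also called LSH). The TET enzymes oxidise the methyl group, the first step of its active removal. Polycomb repressive complex 2 (PRC2) methylates lysine 27 of histone H3 through EZH2, abundant in dividing cells, or through EZH1, which is common in resting cells, and Polycomb repressive complex 1 (PRC1) ubiquitinates histone H2A and binds the PRC2 mark through CBX proteins.

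The libraries held 19695318 to 33600076 counts in genes, and levels are given as CPM, counts per 1000000 counts in genes after scaling by the trimmed mean of M values (TMM). Reads aligned outside genes made up 39.9% to 41.5% of the epithelium libraries and 8.08% to 32.3% of the tumour libraries. Tumour 4 differed from the other libraries: 52.0% of its alignments had more than 1 place in the genome, and 22.6% of its gene counts were in Rn7sk, against at most 27.2% and 5.26% in the other tumours. Calls, member pairs and most similar genes that changed when it was left out are also given without it. Markers of other cells differed between the groups as well. The summed level of 10 T and NK cell markers was 453 to 515 CPM in epithelium and 4.09 to 38.1 CPM in tumours, and that of 8 B cell markers was 772 to 1082 CPM and 4.54 to 82.2 CPM. All 18 of these markers were called lower in tumours, and each was detected in epithelium, whereas Cd3e and Klrb1c had no count in at least 1 tumour. Endothelial markers fell in 5 of 8 and adipocyte markers in 3 of 8, macrophage markers rose in 3 of 8, and 0 of 8 fibroblast markers were called. Of 8 epithelial markers, Epcam and Cdh1 were called higher. Not called were Krt7 (log2 fold change 1.88), Krt5 (1.29), Krt18 (0.69), Krt8 (0.51), Krt14 (-0.68) and Krt19 (-1.23). Their summed level, with Epcam and Cdh1, was 2146 to 3093 CPM in epithelium and 1422 to 7043 CPM in tumours. Tumours 20, 21 and 24 lay below all epithelium libraries in this sum. In bulk tissue, fewer cells of a type and less RNA per cell cannot be told apart, and the part of these cells in the results was not tested.

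Promoter sequences are shown first because Uhrf1, Hells and Ezh2, the members that rose in tumours, and Dnmt1 each held the same kind of short word there. E2F factors switch on replication genes as cells enter S phase, and 4 spellings of their binding word were searched on both strands: TTTGGCGC, TTTCGCGC, TTTCCCGC and TTTGCCGC. RefSeq promoters of build GRCm38.p6, each running from 250 bases before a start to 50 bases after it, were found for all 10 members, 15 windows in all. Such a word stood in 2.28% of 32544 windows of this length across the genome, a share not matched for CpG content. Among the members it stood in 4 of 15 windows, those of Dnmt1, Uhrf1, Hells and Ezh2, and no window of Dnmt3a, Dnmt3b, Tet1, Tet2, Tet3 or Ezh1 held one of the 4 spellings. The sequences are written 5′ to 3′ on the strand of the gene with the E2F word in capitals. The Uhrf1 stretch covers the 250 bases before its second RefSeq start (chr17:56304063-56304312, plus strand), which lie in an intron of a longer Uhrf1 transcript in GENCODE. The Hells stretch runs from 250 to 46 bases before the start (chr19:38930740-38930944, plus strand) and ends within 30 bases of exon of a longer GENCODE transcript. For Ezh2 (chr6:47595009-47595038, minus strand) and Dnmt1 (chr9:20952824-20952853 and chr9:20952574-20952603, minus strand) 30 bases around the word are shown, since these lie in annotated exons.
Uhrf1: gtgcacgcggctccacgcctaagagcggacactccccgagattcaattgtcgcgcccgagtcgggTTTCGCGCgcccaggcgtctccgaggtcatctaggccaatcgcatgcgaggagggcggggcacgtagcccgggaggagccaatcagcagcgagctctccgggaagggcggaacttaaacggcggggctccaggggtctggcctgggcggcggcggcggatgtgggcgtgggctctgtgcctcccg
Hells: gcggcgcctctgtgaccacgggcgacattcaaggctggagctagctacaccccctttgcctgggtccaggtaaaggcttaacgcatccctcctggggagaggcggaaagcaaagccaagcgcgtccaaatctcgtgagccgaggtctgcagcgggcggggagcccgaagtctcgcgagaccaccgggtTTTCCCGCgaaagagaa
Ezh2: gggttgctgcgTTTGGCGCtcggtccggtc
Dnmt1, first word: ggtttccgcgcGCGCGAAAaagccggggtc
Dnmt1, second word: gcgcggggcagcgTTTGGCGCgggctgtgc
Counted from the RefSeq start, the word began at position -185 in Uhrf1, at -62 in Hells and at 4, within the transcript, in Ezh2. The third Dnmt1 window held the word on the opposite strand at position -219 and again on the gene's strand at 34. CCAAT, which occurred in 37.4% of all windows on either strand, stood in windows of Dnmt1, Uhrf1, Ezh2 and Tet3. The word TTTGAA (17.8% of all windows) stood in a window of Dnmt1 and of Dnmt3b, and CACGTG (7.17%) in 1 window of Dnmt3a. CpG pairs, the substrate of these enzymes, numbered 2 in the first Dnmt1 window and 12 to 57 in the other 14, with the most in Tet2, against a median of 7 over all windows. The 4 windows with an E2F word held 31 to 34 CpG pairs, and each spelling of the word contains a CpG. The share over all windows is therefore not a like background for the members. A match describes the letters of these windows and is not evidence of binding. A part of E2F factors in the levels was not tested.

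Uhrf1 and Hells, which work with DNMT1 behind the replication fork, and the H3K27 methyltransferase gene Ezh2 were higher in tumours. They were the 3 of 10 members called higher by edgeR's quasi-likelihood test (adjusted p under 0.05, Benjamini-Hochberg). None was called lower, and none was lower at an unadjusted p under 0.05 either. As background, 8.89% of the 21456 genes tested were called higher and 11.4% lower. The share of all genes at an unadjusted p under 0.05 in edgeR was not computed. Counts at that threshold, here and in the partner lists, therefore have no background. The median log2 fold change (tumour over epithelium) was 0.19 over the members and 0.17 over all genes. Long genes tended lower: in 10 classes of exonic length the median ran from 0.82 in the shortest to -0.08 in the longest class, which holds Dnmt3a and the 3 Tet genes, and was 0.28 in that of Uhrf1 and 0.11 in that of Dnmt1, Hells, Ezh1 and Ezh2. The same 3 genes had every tumour above every epithelium library, a separation that 10.2% of all genes showed, and no member had every tumour below, as 14.1% of all genes did. DESeq2 also called these 3 higher and none lower, against 13.6% and 12.8% of its tested genes. Limma-voom called the 3 higher and Tet1 lower, against 23.3% and 26.2%. When the percentage of reads outside genes, which did not overlap between the groups, was added to the edgeR model as a covariate, no member was called.

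**Figure D1:**
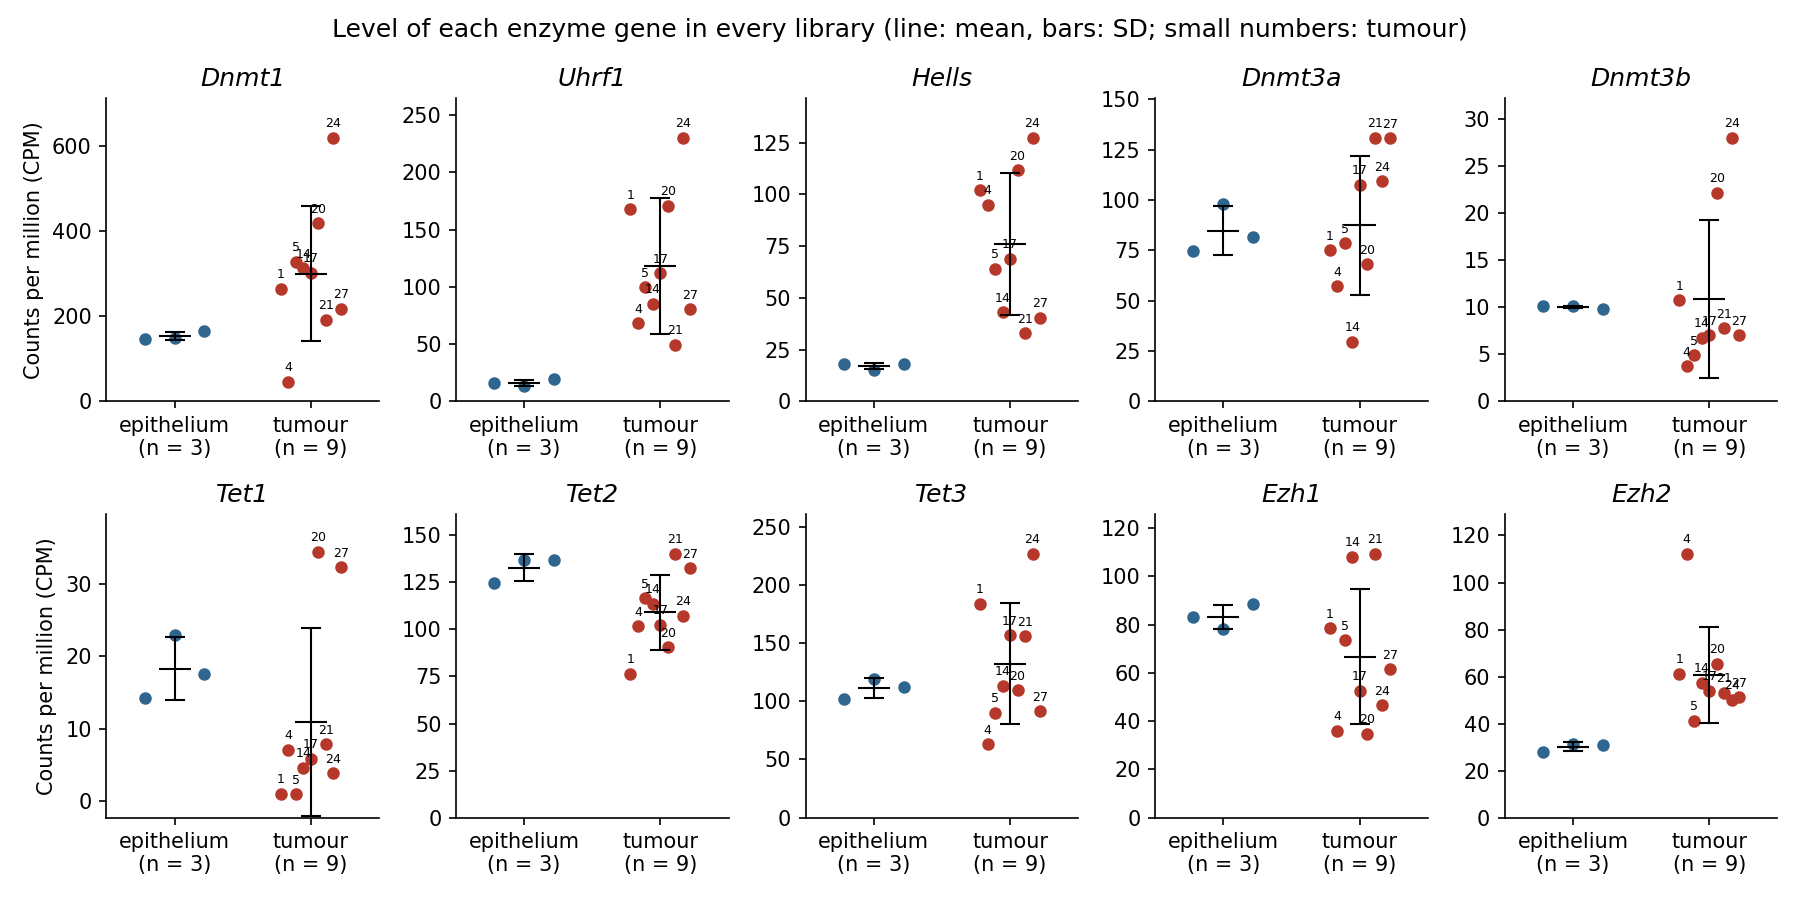
Level of each enzyme gene in CPM (vertical axes, linear, scaled separately per gene) in 3 epithelium libraries (blue) and 9 tumours (red, with the tumour number); horizontal lines are means and bars are SD. Uhrf1, Hells and Ezh2 have every tumour above the epithelium, and Dnmt1 has all tumours but tumour 4 above it.

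Among the genes that maintain methylation, Uhrf1 showed the highest rise. Uhrf1 (chr17:56303321-56323486, GRCm38, plus strand) stood at 16.0, 13.8 and 19.2 CPM in the 3 epithelium libraries. The lowest tumour value was 49.5 CPM (tumour 21), the median 99.5 CPM and the highest 230.5 CPM (tumour 24), so every tumour lay above the highest epithelium library. The means were 118.3 ± 59.1 CPM (SD, n = 9) and 16.3 ± 2.71 CPM (SD, n = 3). The log2 fold change was 2.86 (SE 0.49, edgeR adjusted p = 0.00152), 7.24-fold. Leaving out any 1 library kept the call, with the highest adjusted p at 0.0148, and the covariate fit gave a log2 fold change of 3.22 with an adjusted p of 0.0816.

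Hells, the remodeller that opens nucleosomal DNA to methylation, rose with it. Hells (chr19:38930915-38971051, plus strand) measured 18.1, 15.2 and 17.8 CPM in epithelium. Tumours spanned 32.9 CPM (tumour 21) to 127.4 CPM (tumour 24), with a median of 68.8 CPM, and again did not overlap the epithelium. The log2 fold change was 2.16 (SE 0.45, edgeR adjusted p = 0.00538). It held in every fit that left out 1 library, with adjusted p up to 0.0383, and the covariate fit gave 1.52 with an adjusted p of 0.260.

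Dnmt1, the maintenance methyltransferase itself (chr9:20907209-20959888, minus strand), had the highest mean of the 10 per kilobase of exon in both groups. Epithelium held 147.4, 149.3 and 165.4 CPM. Tumour 4 was lowest with 46.6 CPM, tumour 24 highest with 619.5 CPM and the median 302.5 CPM, and 8 of 9 exceeded all epithelium libraries. The next lowest tumour, tumour 21, stood at 192.2 CPM. The log2 fold change of 0.96 (SE 0.53) was not called (edgeR adjusted p = 0.207). Without tumour 4 it was 1.12 (SE 0.35, adjusted p = 0.0390) and was called, so 1 library decided it. With reads outside genes as a covariate it was 3.08 (SE 0.98, edgeR adjusted p = 0.109). That percentage did not overlap between the groups, and tumour 4, lowest in Dnmt1, was also lowest in it, at 8.08%. The covariate fit was not repeated without tumour 4, so its value does not give the size of the Dnmt1 difference.

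The ratio of Uhrf1 to Dnmt1 was higher in tumours. The mean log2 ratio of Uhrf1 to Dnmt1 was -3.24 ± 0.17 (SD, n = 3) in epithelium and -1.25 ± 0.77 (SD, n = 9) in tumours. This was a 3.99-fold difference, a log2 difference of 2.00 (exact permutation over 220 splits, two-sided p = 0.00909, the smallest this design allows, adjusted over 3 ratios 0.0136). Every tumour lay above every epithelium library, and the highest ratio was that of tumour 4, at 0.55. Without any 1 epithelium library the adjusted p was 0.055, from the smallest p that 9 against 2 libraries allow.

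Neither de novo enzyme gene was called, and both went up in some tumours and down in others. Dnmt3a (chr12:3806007-3914443, plus strand) measured 74.6, 98.1 and 81.6 CPM in epithelium and 29.5 CPM (tumour 14) to 130.9 CPM (tumour 21) in tumours, with a median of 78.6 CPM. Tumour values fell on both sides of the epithelium, 4 above all 3 libraries and 3 below, and the log2 fold change was 0.04 (SE 0.37, edgeR adjusted p = 0.944). Dnmt3b (chr2:153649450-153687730, plus strand), which is best known from early embryos and from cancers that re-express it, was close to constant in epithelium at 10.1, 10.1 and 9.84 CPM. Tumour 24 at 28.0 CPM and tumour 20 at 22.1 CPM were high, while tumour 1 measured 10.7 CPM and the other 6 lay below the epithelium, at 3.74 to 7.75 CPM. The log2 fold change was 0.12 (SE 0.57, adjusted p = 0.897). The Dnmt3b to Dnmt3a log2 ratio differed between the groups by -0.11 (exact permutation p = 0.891). Dnmt3b made up 25.2% to 30.6% of the pair per kilobase in epithelium and 14.9% to 51.5% in tumours.

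No Tet gene was called by edgeR, and Tet1 varied more from tumour to tumour than any other member. Tet1 (chr10:62804570-62908996, minus strand), the family member best known from stem and germ cells, stood at 14.3, 22.9 and 17.6 CPM in epithelium. In tumours 20 and 27 it was 34.5 and 32.3 CPM, above all epithelium libraries, and in the other 7 tumours it was 0.981 to 7.88 CPM, below all of them. Tumours 1 and 5 were the lowest, at 1.03 and 0.981 CPM, so the highest tumour exceeded the lowest 35.2-fold. Because the tumours lay on both sides, the log2 fold change of -0.74 carried an SE of 0.89 (edgeR adjusted p = 0.577), and limma-voom, which gave -1.66, called it lower (adjusted p = 0.0261). Tet2 (chr3:133463679-133545139, minus strand), a gene often mutated in blood cancers, varied least of the 10, with 124.6, 136.9 and 137.0 CPM in epithelium and 76.4 to 140.2 CPM in tumours (median 107.3 CPM). The level lay below all epithelium libraries in 7 tumours, and the log2 fold change of -0.29 (SE 0.21, edgeR adjusted p = 0.339) was not called. Tet3 (chr6:83362373-83459084, minus strand) averaged 111.4 ± 8.41 CPM (SD, n = 3) in epithelium, where its lowest library held 102.4 CPM, and measured 62.9 (tumour 4) to 226.8 CPM (tumour 24) in tumours. Its log2 fold change was 0.25 (SE 0.34, adjusted p = 0.632).

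Of the H3K27 methyltransferases, Ezh2 was called higher and Ezh1 was not called. Ezh2 (chr6:47530139-47595341, minus strand) stood at 28.0, 31.5 and 31.0 CPM in epithelium. Tumours ranged from 41.3 CPM (tumour 5) to 112.2 CPM (tumour 4), with a median of 54.0 CPM and no overlap with the epithelium. The 8 tumours other than tumour 4 lay between 41.3 and 65.5 CPM, a narrow band. The log2 fold change was 1.01 (SE 0.30, edgeR adjusted p = 0.0301) and, without tumour 4, 0.85 (SE 0.19, adjusted p = 0.00895). The call was lost without any 1 epithelium library (adjusted p 0.104 to 0.132), with upper quartile scaling (0.0530), with no filter (0.0516) and with the covariate, where the log2 fold change was 0.17. Ezh1 (chr11:101191115-101226463, minus strand) measured 83.0, 78.3 and 88.4 CPM in epithelium and 34.7 (tumour 20) to 109.4 CPM (tumour 21) in tumours, with 6 tumours below and 2 above all epithelium libraries. The log2 fold change was -0.32 (SE 0.35, adjusted p = 0.540).

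The balance of the pair moved toward Ezh2. Per kilobase of exon, Ezh2 made up 27.3%, 30.9% and 28.1% of Ezh1 plus Ezh2 in epithelium. It made up 35.1% in tumour 21, the lowest, and 77.6% in tumour 4, the highest, with a mean of 51.0% ± 14.3 (SD, n = 9). The log2 ratio of Ezh2 to Ezh1 was 1.38 higher in tumours, with every tumour above every epithelium library (exact permutation, two-sided p = 0.00909, adjusted 0.0136, and 0.055 without 1 epithelium library). In 4 of 9 tumours, numbers 4, 17, 20 and 24, Ezh2 exceeded Ezh1 per kilobase, and in epithelium it never did. The sum of both genes was 15.2 to 16.5 CPM per kilobase in epithelium and 13.8 to 23.1 in tumours.

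**Figure D2:**
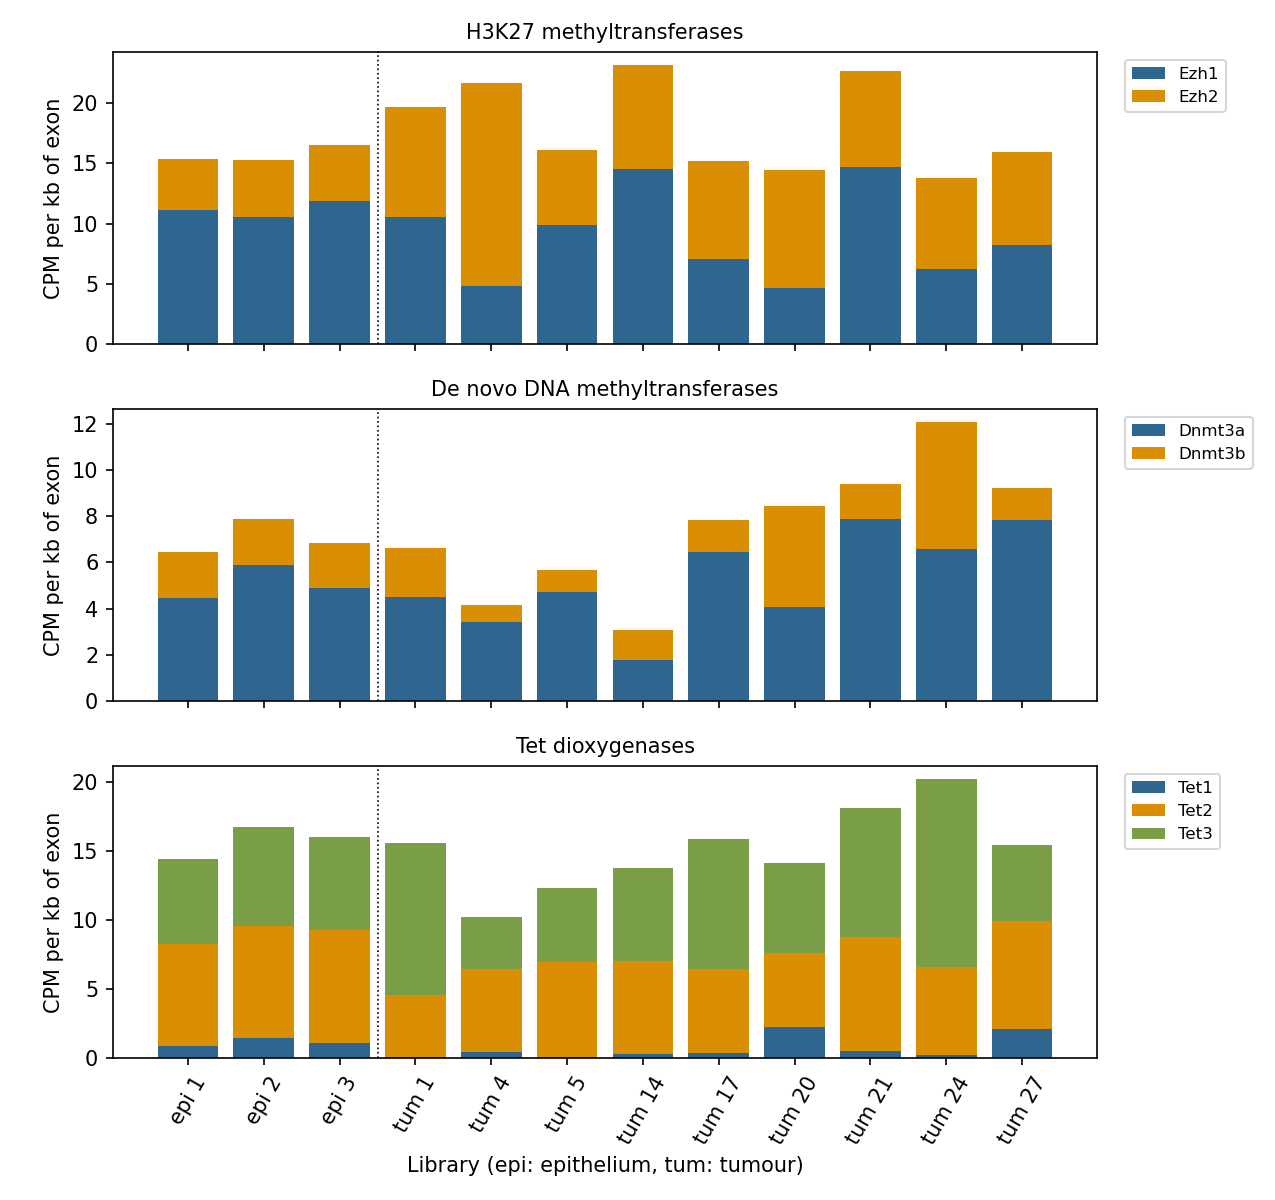
Stacked levels of paralogous enzymes in each of the 12 libraries (vertical axes from 0, CPM per kilobase of exon; a dotted line separates the epithelium libraries on the left from the tumours on the right). Ezh2 takes 27.3% to 30.9% of its pair in epithelium and 35.1% to 77.6% in tumours, whereas the Dnmt3b and Tet1 shares go up in some tumours and down in others.

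Ordered per kilobase of exon, the epithelium means ran from Dnmt1 (20.9 CPM per kb) through Ezh1 (11.2), Tet2 (7.87), Tet3 (6.67), Dnmt3a (5.09), Ezh2 (4.51), Uhrf1 (3.83), Hells (2.37) and Dnmt3b (1.96) to Tet1 (1.18). Each gene exceeded the next in all 3 libraries. In tumours Dnmt1 still led with 40.7 ± 21.5 CPM per kb (SD, n = 9), and Uhrf1 was second with 27.8 ± 13.9 and lay above Hells, the third at 10.6, in 9 of 9. Dnmt1 exceeded Uhrf1 in 7 of 9. Hells, Ezh2 (9.08), Ezh1 (8.97), Tet3 (7.93), Tet2 (6.46) and Dnmt3a (5.25) followed without a clear order, since each exceeded the next in 4 to 7 of 9 tumours. Dnmt3b (2.13) and Tet1 (0.705) were last, and Dnmt3a exceeded Dnmt3b in 8 of 9, as Dnmt3b did Tet1.

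Tumour by tumour, each was compared with the mean of the epithelium on the log2 CPM scale, and a difference of at least 2-fold was counted without a test. Uhrf1 was at least 2-fold above the epithelium in all 9 tumours and Hells in 8, all but tumour 21. Over all 21456 genes tested, 17.2% (tumour 21) to 23.5% (tumour 4) were as far above the epithelium mean and 16.5% (tumour 21) to 32.4% (tumour 4) as far below. Tumours 20 and 24 had the most members raised, 5 of 10 each, against 20.1% and 22.8% of all genes, among them Dnmt1, Uhrf1, Hells and Dnmt3b. They differed in Tet1, at 0.94 in tumour 20 and -2.20 in tumour 24 relative to the epithelium mean. Tumour 21 had 1 member raised, Uhrf1, and 1 lowered, Tet1. Tumour 4 had the most lowered, 4 of 10 members (Dnmt1, Dnmt3b, Tet1 and Ezh1), and also the highest share of all genes lowered. Tumour 27 had none lowered.

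**Figure D3:**
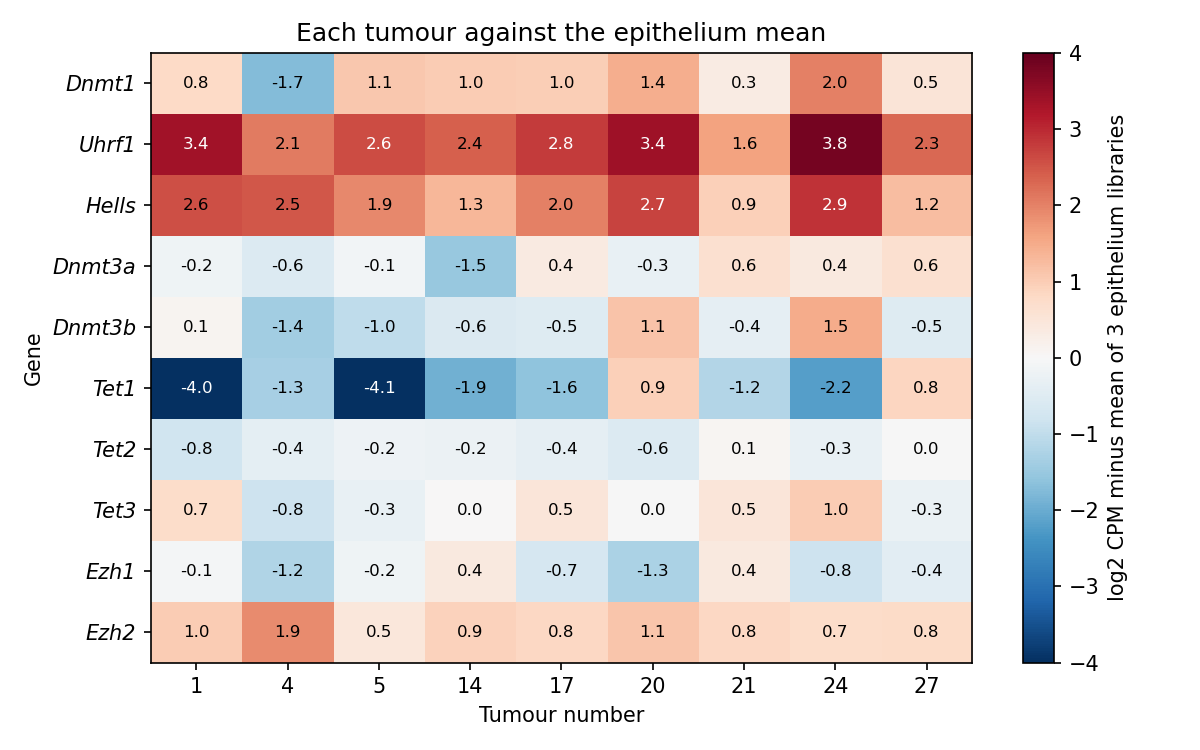
Log2 CPM of each enzyme gene (rows) in each tumour (columns) minus the mean of 3 epithelium libraries; red is above and blue below the epithelium mean. The Uhrf1 row is red throughout, from 1.6 in tumour 21 to 3.8 in tumour 24, and the Tet1 row is blue except in tumours 20 and 27.

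Because several members are known as genes of dividing cells, they were set beside replication genes. A score was taken as the mean log2 CPM of 25 S phase genes that hold no member, among them the Mcm helicase genes, Pcna and E2f1. It was 1.51 higher in tumours, and 17 of the 25 genes were called higher and none lower. Relative to this score, Uhrf1 was higher by 1.20 (exact permutation, p = 0.00909, adjusted over 10 members 0.0182) and Hells by 0.50 (adjusted 0.0404). Lower relative to it were 7 members: Dnmt1 by a log2 difference of -0.79, Dnmt3a by -1.58, Dnmt3b by -1.69, Tet1 by -3.13, Tet2 by -1.81, Tet3 by -1.36 and Ezh1 by -1.94, with adjusted p between 0.0182 and 0.0341. By the same test without adjustment, 63.0% of all 21456 genes were lower relative to the score and 1.49% higher, and the median difference from it was -1.53 over all genes and -1.47 over the members. Of the members, 7 of 10 were lower and 2 of 10 higher at an unadjusted p under 0.05, so the lower count lay near the background. Ezh2 differed from the score by -0.55 (adjusted p = 0.227). Without any 1 epithelium library no member passed the threshold against the score (adjusted p of Uhrf1 0.0519 to 0.0727). The difference of Hells passed in only 1 of the 9 fits that left out a tumour, that without tumour 27, and had an adjusted p of 0.0539 in the other 8. A list of 20 mitosis genes rose by 2.77 on the same scale. Measured against them, Ezh2 stood at -1.81 (exact permutation, adjusted p = 0.0114), Uhrf1 at -0.06 and Hells at -0.75. With all 12 libraries, Uhrf1 and Hells thus exceeded the S phase list, and neither exceeded the mitosis list. The share of genes lower relative to the mitosis list was not computed, so the Ezh2 value has no background. Ezh2 rose by 1.01 in edgeR and the median gene by 0.17, both less than the mitosis genes. A negative value against that list is therefore not particular to Ezh2.

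Within the 9 tumours, Uhrf1 followed the S phase score. Pearson's r was 0.95 (exact permutation over all pairings, p adjusted over 20 relations 0.00331) and Spearman's rho 0.92 (adjusted 0.0262). Without tumours 21 and 24, which lay farthest from the median score, r was 0.88. For Hells r was 0.85 (adjusted p = 0.0152), rho was 0.83 (adjusted p = 0.0551), and r was 0.71 without tumours 21 and 24. The relation of Hells did not pass without tumour 21 (adjusted p = 0.108 by exact permutation) or without tumour 24 (0.0769). Dnmt1 had r = 0.54 (adjusted p = 0.305) and Dnmt3b r = 0.70 (adjusted p = 0.141) by the same exact permutation test. The Dnmt1 value includes tumour 4, which held its lowest level (46.6 CPM), and r without that tumour is not given here. Between Dnmt1 and Hells, r was 0.15 with tumour 4 and 0.80 without it. The value of 0.54 therefore does not set Dnmt1 apart from Uhrf1 and Hells. Ezh2, although higher in every tumour, had r = -0.14 (adjusted p = 0.775). Uhrf1 also fell as a lymphocyte score, the mean of 18 T, NK and B cell markers, rose (r = -0.90, adjusted p = 0.0133 by exact permutation, rho = -0.87 with adjusted p = 0.0451, r = -0.76 without tumours 21 and 24), and this did not pass without tumour 21 (adjusted p = 0.0870) or tumour 24 (0.0732). The relation of Hells to the lymphocyte score passed without tumour 4 (exact permutation, adjusted p = 0.0160), without tumour 5 (r = -0.86, adjusted p = 0.0278) and with a prior count of 0.5 (adjusted p = 0.0498). The S phase and lymphocyte scores themselves had r = -0.94 over the 9 tumours, so the relations of Uhrf1 to them cannot be told apart. None of the other 17 relations passed the threshold by Pearson's r, among them Hells with the lymphocyte score (r = -0.81, exact permutation, adjusted p = 0.0515).

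**Figure D4:**
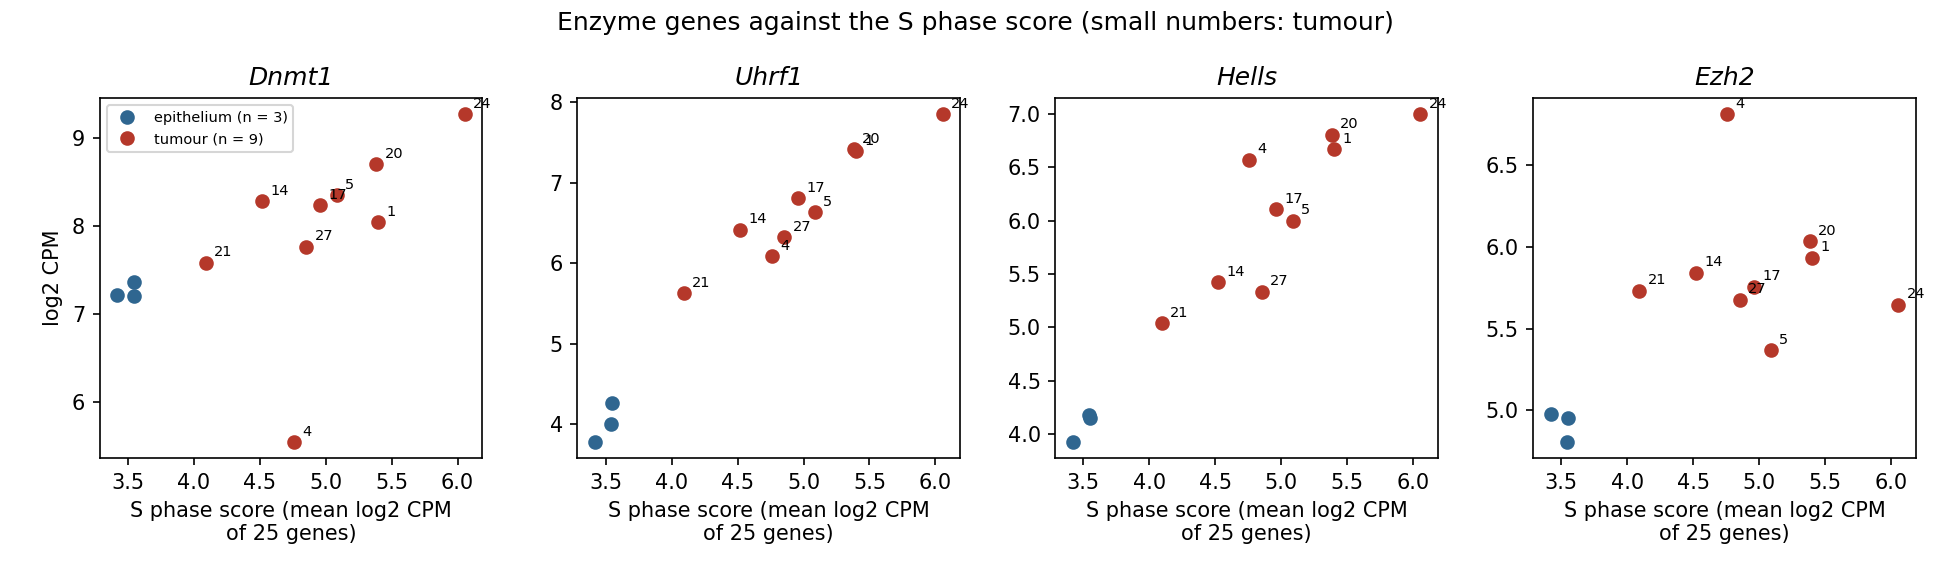
Log2 CPM of Dnmt1, Uhrf1, Hells and Ezh2 (vertical axes) against the S phase score, the mean log2 CPM of 25 replication genes (horizontal axes), in 3 epithelium libraries (blue) and 9 tumours (red, with the tumour number). Uhrf1 and Hells rise with the score among tumours (r = 0.95 and r = 0.85), and r was 0.54 for Dnmt1 and -0.14 for Ezh2.

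The members were also compared with one another across the tumours, as a description. Uhrf1 and Hells had r = 0.81 over 9 tumours and 0.975 without tumour 4, and Uhrf1 and Dnmt3b had r = 0.79 and 0.755. Dnmt1 and Hells had r = 0.15 with tumour 4 and r = 0.80 over the 8 tumours without it, and Dnmt1 and Ezh2 had r = -0.78 with it and r = -0.0035 without it. The search for the most similar patterns took 11721 genes that averaged 5 CPM or more in tumours. The gene most like Uhrf1 over the 9 tumours was Tacc3, which acts at the mitotic spindle (r = 0.99), followed by Nop56 and the mitotic cyclin gene Ccnb2 (both r = 0.96). Those most like Hells were Lyar (r = 0.97), the cohesin protector gene Sgo1 and Selenoh (both r = 0.96). Dnmt1 was most like Tti1, Snrpa and Rnf40 (r from 0.98 to 0.99), and Dnmt3b most like Fra10ac1 (r = 0.98). Tet1, high in tumours 20 and 27, was most like Ctnnd2 (r = 0.95), Tspyl4 and the basal keratin gene Krt5 (both r = 0.93). Ezh2 was most like Nmd3 (r = 0.96) and Ezh1 most like Sumf1 (r = 0.95). The ranking was repeated over the 8 tumours without tumour 4, an alternative chosen after seeing the data. Tacc3 remained first for Uhrf1, Fra10ac1 for Dnmt3b and Ctnnd2 for Tet1. The rankings of Dnmt1 and Ezh2 changed most: the genes most like Dnmt1 were then the mitotic genes Bub1b and Kif11 (both r = 0.98) and Proser3, with Tti1 at rank 16, and the gene most like Ezh2 was Paqr3 (r = 0.95), with Nmd3 at rank 45 (r = 0.79). Hells was then most like Tacc3 (r = 0.98) and Ezh1 most like Zmynd15 (r = 0.97). All these values share the libraries and their scaling.

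Of 10 genes for partners of EZH2 in PRC2, 0 were called higher and 1 lower by edgeR, with a median log2 fold change of -0.15. At an unadjusted p under 0.05, 1 was higher, Rbbp7, DESeq2 called 0 higher and limma-voom 2. Of all genes tested, edgeR called 8.89% higher and 11.4% lower, DESeq2 13.6% higher and limma-voom 23.3% higher. The core subunit genes Eed (log2 fold change -0.12) and Suz12 (-0.19) were not called. Jarid2, which guides PRC2 to its targets, fell from 84.3, 85.8 and 95.2 CPM in epithelium to between 19.2 CPM (tumour 4) and 48.5 CPM (tumour 17). Every tumour lay below every epithelium library (log2 fold change -1.32, SE 0.25, edgeR adjusted p = 0.00277). The call was kept in 18 of 19 alternatives and lost with the covariate.

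In PRC1, genes of the subunits that read the H3K27 mark changed in opposite directions: Cbx7 fell, Cbx2 and Cbx8 rose, and Cbx6 (log2 fold change 0.61) was not called. Of 19 subunit genes edgeR called 4 higher and 1 lower, against 8.89% and 11.4% of all genes tested, with a median log2 fold change of 0.25. DESeq2 called 5 higher and 1 lower, against 13.6% and 12.8% of its tested genes. Limma-voom called 8 higher and 3 lower, against 23.3% and 26.2%. At edgeR's unadjusted p under 0.05, 7 were higher and 2 lower. Cbx7 fell from 102.8, 69.0 and 90.9 CPM in epithelium to 8.05 CPM (tumour 17) to 39.3 CPM (tumour 21), with a median of 27.4 CPM, a log2 fold change of -1.73 (SE 0.37, edgeR adjusted p = 0.00590). Cbx2 rose from 4.78, 5.18 and 4.80 CPM to between 5.84 CPM (tumour 4) and 30.5 CPM (tumour 5), with a median of 15.9 CPM (log2 fold change 1.85, SE 0.47, adjusted p = 0.0161). Neither gene overlapped between the groups. Cbx8 (1.26, adjusted p = 0.0442) and Yaf2 (1.37, adjusted p = 0.0177) were also higher, as was Pcgf3 (1.30, adjusted p = 0.00316), a subunit of a variant PRC1. The calls of Cbx2, Cbx8 and Yaf2 were lost without any 1 epithelium library, and those of Cbx8 and Yaf2 also with the covariate. Cbx8 was called in 8 of 19 alternatives. Pcgf3 and Cbx7 were lost only with the covariate. The catalytic subunit gene Rnf2 (-0.21) and Bmi1 (0.06) were not called.

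Of 6 genes that remove Polycomb marks, 1 was called lower and 0 higher by edgeR. DESeq2 called 2 lower and limma-voom 4, neither called any higher, and at edgeR's unadjusted p under 0.05 there were 3 lower (Asxl2, Asxl3 and Kdm6b) and 0 higher. Of all genes tested, edgeR called 8.89% higher and 11.4% lower, DESeq2 13.6% and 12.8%, and limma-voom 23.3% and 26.2%. These shares are the background of every count of called genes in this paragraph. The gene called lower by edgeR was the H3K27 demethylase gene Kdm6b, at 41.7 to 69.6 CPM in epithelium and 14.8 to 54.2 CPM in tumours (log2 fold change -1.10, edgeR adjusted p = 0.0431). Its call was kept in 7 of 19 alternatives. Of 9 genes on a list of methyl-CpG readers and their relatives edgeR called none. At an unadjusted p under 0.05, for which no share of all genes was computed, 2 were higher (Mbd3 and Zbtb33) and 0 lower. DESeq2 called 1 higher, and limma-voom 2 higher and 1 lower. The most abundant readers in tumours, Zbtb38 and Uhrf2, a relative of Uhrf1, had log2 fold changes of 0.72 and 0.17. Among 14 partners of DNA methylation and demethylation, of which 13 were tested, Gadd45b was called lower (54.2 to 69.4 CPM in epithelium, 4.92 to 38.2 CPM in tumours, log2 fold change -2.003, adjusted p = 0.0242) and none higher. At an unadjusted p under 0.05, 3 were higher: Apobec1, the DNA ligase gene Lig1 and Cdca7, whose protein recruits HELLS. At that threshold 2 were lower, Gadd45b and Usp7. DESeq2 called 2 of the list higher and 1 lower, and limma-voom 3 higher and 3 lower (Gadd45b, Ogt and Usp7). GADD45 proteins, such as that of Gadd45b, have been linked to DNA demethylation and are stress-induced. The call of Gadd45b was lost without any 1 epithelium library and with the covariate.

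Among germline genes that DNA methylation keeps silent in body tissues, Tex11 and Tdrd1 were each high in a single tumour. Of 15 genes on the list 2, Brdt and Ddx4, passed the filter, and no tool called either or gave an unadjusted p under 0.05. Tex11 measured 18.5 CPM (528 counts) in tumour 5 and at most 0.373 CPM in the other 11 libraries. Tdrd1 measured 10.4 CPM (246 counts) in tumour 17 and at most 0.332 CPM elsewhere. In tumour 5 Dnmt1 stood at 327.6 CPM and Uhrf1 at 99.5 CPM, and in tumour 17 at 302.5 and 112.1 CPM, near the medians of the tumours. In tumour 5 Dnmt3b was 4.90 CPM, under its tumour median of 7.04 CPM, and Tet1 had its lowest tumour value, 0.981 CPM. In tumour 17 Dnmt3b was 6.99 CPM, near its tumour median, and Tet1 was at its tumour median, 5.85 CPM. These Dnmt3b and Tet1 values lay below all epithelium libraries. Dnmt3b did so in 6 tumours in all and Tet1 in 7, so this did not set tumours 5 and 17 apart. A relation between these levels and the germline genes was not tested.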

How the data were processed

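Per the labels' protocols, TruSeq stranded libraries were built from total RNA. The authors deposited raw counts per gene, 1 table per library; FastQC 0.11.8, TopHat2 2.1.1, HTSeq 0.11.0 and build GRCm38 come from the submitters' processing notes, while the sources used here name neither the annotation release nor the strand setting. Antisense genes shared few exonic bases with Dnmt3a (133), Tet2 (43) and Ezh2 (174) and held 17 to 38 counts over all libraries. The upper limit behind a count of 0, taken as 3 counts, ranged from 0.0893 to 0.152 CPM before scaling and covers counting error only.

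Counts were fitted in R 4.3.3 with edgeR 4.0.16 (filterByExpr, TMM scaling, robust quasi-likelihood F test, group only), adjusted over all genes tested. DESeq2 1.42.0 and limma 3.58.1 were alternatives, with 2 other scalings, 2 other filters, a covariate and each library left out. SE came from dividing the size of the log2 fold change by the root of F. Scores and ratios used log2 CPM with a prior count of 2, and exact permutation tests are two-sided. The edgeR pipeline was tested on simulated data. Exonic lengths and positions come from GENCODE M21 (GRCm38). Ambiguous, non-unique and outside-gene alignments stayed out of library sizes. The members and gene lists were chosen with earlier results of these data known. Partner genes were named as the called genes of each list with the smallest adjusted p, up to 4 per direction, or else the 2 most abundant; other partners and the germline examples were named after their values were seen. A gene that enters the list counts is not reported here.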

Additional observations from a re-analysis of the deposited data

Results flagged for a closer look

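Ezh2 in tumour 4 was 112.2 CPM, and its gap to the next tumour was 0.658 of the range of the 9 tumours, above Dixon's critical value of 0.493. Each of the 10 members and each of the 3 ratios was examined in the tumours, and chance marks about 1 in 20 such groups. In tumour 4, 52.0% of alignments had more than 1 place and 22.6% of gene counts were in Rn7sk, and Dnmt1 had its lowest level. The part of these in the Ezh2 value was not tested.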

How the results depend on the processing

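Uhrf1 and Hells were called higher in every alternative except the covariate. With the covariate (reads outside genes), 0 members were called higher, 1 other pathway gene was called higher and 0 lower, and the log2 fold changes of Tet1, Ezh1, Dnmt1, Dnmt3b and Tet3 were 0.043, 0.69, 3.08, 1.55 and 1.16. The 6 other pathway lists hold 73 genes. DESeq2 called 8 of them higher, against 13.6% of all its tested genes. Limma-voom called 1 member lower, 15 other pathway genes higher and 12 lower, against 23.3% of all genes higher and 26.2% lower. It gave Dnmt3a -0.068 and Dnmt3b -0.15. Dnmt3a was -0.062 with upper quartile scaling and -0.019 with a filter of 10 counts in 9 libraries. Single libraries left out gave 1 to 7 other pathway genes higher (4 with all libraries) and 2 to 4 lower. The lowest counts came without an epithelium library and the 7 without tumour 4. The same series gave Dnmt3a -0.048 to 0.16, Dnmt3b -0.19 to 0.26, the Ezh2 to Ezh1 ratio 1.17 to 1.503, the Uhrf1 to Dnmt1 ratio 1.77 to 2.08 and the Dnmt3b to Dnmt3a ratio -0.31 to 0.016. Relative to the S phase score, 0 to 2 members were higher and 0 to 7 lower, both 0 without any epithelium library. Without tumours 1, 4, 5, 14, 17, 20, 21 or 24, 1 was higher. With mitosis genes in place of S phase genes, 0 members were higher, Uhrf1 stood at -0.057 and Hells at -0.75, and r of Dnmt3a with the score was -0.067. Ezh2 against the S phase score had r = 0.00043 with relative log expression scaling and -0.27 to 0.027 without single tumours. Dnmt3a ranged from -0.23 to 0.49 against the S phase score and from -0.41 to 0.35 against the lymphocyte score. The number of relations past the threshold was 1 to 4, against 3 with all tumours, with 1 without tumour 21 or 24 and 4 without tumour 4 or 5. The cause of these changes was not tested. No paired analysis was possible because the labels give no pairing of tumours with epithelium libraries.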
